A study of Mus musculus with 6 samples.

Results

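The 10 genes described here are grouped as lipid and bile acid carriers and are called carriers below. They include the bile acid transporter subunits Slc51a and Slc51b and the fatty acid-binding proteins Fabp1, Fabp3, Fabp5, and Fabp6. The fatty acid receptor Cd36 and the phospholipid transfer protein Pltp are also among them. The acyl-CoA synthetase Acsbg1, an enzyme, and the secreted angiopoietin-like protein Angptl6 belong to the group but are not carriers in the strict sense. All 10 were taken from the array by gene name, out of 37028 genes tested, and were read by 13 of 56097 probes tested. The genes were chosen by measured values, the differences between WT and Selenbp1-KO on these same arrays, so their values in WT and Selenbp1-KO kidneys are given as a description, with no test. RNA came from the left kidney of male mice aged 8 weeks, after 20 h of fasting, 3 WT and 3 lacking Selenbp1 (Selenbp1-KO), all labelled as strain C57BL/6J, with 1 one-colour Agilent array per mouse. Selenbp1 encodes a selenium-binding protein. According to the study's methods, the WT mice were bought from a supplier, and the sources used here do not describe them as littermates of the Selenbp1-KO mice or say how the deletion was made.

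Bile acids are made in the liver, taken back from the gut and from the tubular fluid of the kidney, and handed across the basolateral membrane of these epithelia by a transporter built of an alpha and a beta subunit. Inside cells, fatty acids and bile acids travel bound to small cytosolic proteins of the Fabp family, and fatty acids are coupled to coenzyme A before they are oxidized or stored. The proximal tubule of the kidney takes much of its energy from fatty acids, and fasting raises their supply.

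All values are log2 of the signal relative to the 75th percentile of the same array, and differences are Selenbp1-KO minus WT with the standard error (SE) of the limma fit over all probes. The Selenbp1 probe (NM_009150) had 7.07, 7.02, and 7.02 on the WT arrays and 4.13, 3.98, and 4.10 on the Selenbp1-KO arrays, which differ by -2.96 (SE 0.098, limma adjusted p = 0.0021), so the labels go with the targeted gene. All 8 proximal tubule markers were well above background on all 6 arrays, as were all 8 markers of the distal nephron. The 75th percentile of the raw signal ran from 477 to 751, between 51.8% and 55.5% of spots were well above background, and no spot was saturated. Of all genes, 68.4% had a difference above 0, with a median of 0.13, against 0.00 when the arrays were quantile normalized. Genes well above background on all 6 arrays had a median of 0.019. The number of arrays limits the precision: 3 against 3 allow no exact permutation p below 0.10.

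Promoters of the carriers were read from RefSeq (GRCm38.p6) as the 250 bases before the start of transcription, and 9 of the 10 genes had one. AGGTCA, the half-site bound by PPAR, RXR, and related nuclear receptors, was searched on both strands (TGACCT on the other). It stood in 4 of the 9 windows, those of Slc51a, Slc51b, Fabp1, and Cd36, and in 14.0% of all 32851 windows of this length. The windows of 3 of them are shown because they hold this half-site in genes of the bile acid and fatty acid pathway, with the half-site in capitals.
Slc51a, chr16:32487880-32488129, minus strand: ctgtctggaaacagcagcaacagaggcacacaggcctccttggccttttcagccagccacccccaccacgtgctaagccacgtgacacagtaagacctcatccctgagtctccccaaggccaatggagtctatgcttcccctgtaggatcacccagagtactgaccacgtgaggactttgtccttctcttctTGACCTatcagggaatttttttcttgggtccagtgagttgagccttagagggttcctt
Slc51b, chr9:65422774-65423023, minus strand: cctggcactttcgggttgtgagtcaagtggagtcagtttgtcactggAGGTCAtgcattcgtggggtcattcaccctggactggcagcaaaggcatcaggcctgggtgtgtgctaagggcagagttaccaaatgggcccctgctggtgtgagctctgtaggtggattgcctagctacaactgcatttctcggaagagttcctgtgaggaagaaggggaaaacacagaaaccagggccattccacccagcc
Fabp1, chr6:71199629-71199878, plus strand: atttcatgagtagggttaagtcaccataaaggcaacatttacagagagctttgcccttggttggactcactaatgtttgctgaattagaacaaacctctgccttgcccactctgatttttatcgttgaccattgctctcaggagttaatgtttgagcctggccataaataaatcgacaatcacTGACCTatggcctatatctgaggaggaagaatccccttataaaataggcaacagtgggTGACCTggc
The half-site began 58 bases before the start in Slc51a and 203 bases before it in Slc51b. In Fabp1 it occurred at 67 and at 9 bases before the start, on the minus strand both times, and TATAAA lay 30 bases before the start. TATAAA, searched on both strands, was also found in the Fabp6 window, and in 12.4% of all windows. These matches are of letters only, and binding was not measured.

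The array reads each gene by 60-base probes, and 4 of them are printed because the descriptions below rest on them. Positions are those of the array files, on mm9.
Slc51a, second probe, chr16:32475871-32475930: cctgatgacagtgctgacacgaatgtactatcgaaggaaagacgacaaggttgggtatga
Slc51b, chr9:65260705-65260764: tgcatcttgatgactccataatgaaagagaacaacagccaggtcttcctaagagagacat
Fabp6, chr11:43410973-43411032: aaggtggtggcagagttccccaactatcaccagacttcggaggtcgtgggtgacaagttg
Angptl6, chr9:20678326-20678385: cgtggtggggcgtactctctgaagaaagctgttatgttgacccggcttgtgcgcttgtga

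Among the carriers, 8 had a higher and 2 a lower mean in Selenbp1-KO than in WT kidneys. The median difference was 0.21, against 0.13 over all genes and 0.019 over genes well above background on all 6 arrays. For 3 of the 10 the 2 genotypes did not overlap (Acsbg1 and Angptl6 higher, Slc51a lower), where 14.1% of all genes did not overlap, 10.2% higher and 3.87% lower. In the main fit, the study's criterion of p under 0.05 without adjustment was met by 3 (Fabp6, Acsbg1, and Angptl6, all higher). Of all genes 8.00% met it, 6.87% higher and 1.13% lower. Both shares of the carriers follow from how they were put together and nothing is read from them. Adjusted over all probes (limma, Benjamini-Hochberg), p was between 0.279 and 0.869. The number meeting the unadjusted criterion depended on the processing, with 4 after normexp background correction and 1 without WT replicate 3. The study's own list of altered genes also holds Slc51a as lower and Pltp as higher, which did not pass in the main fit. In 8 of the 10 genes the brightest probe was well above background on all 6 arrays, the exceptions being Fabp6 and Acsbg1.

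**Figure D1:**
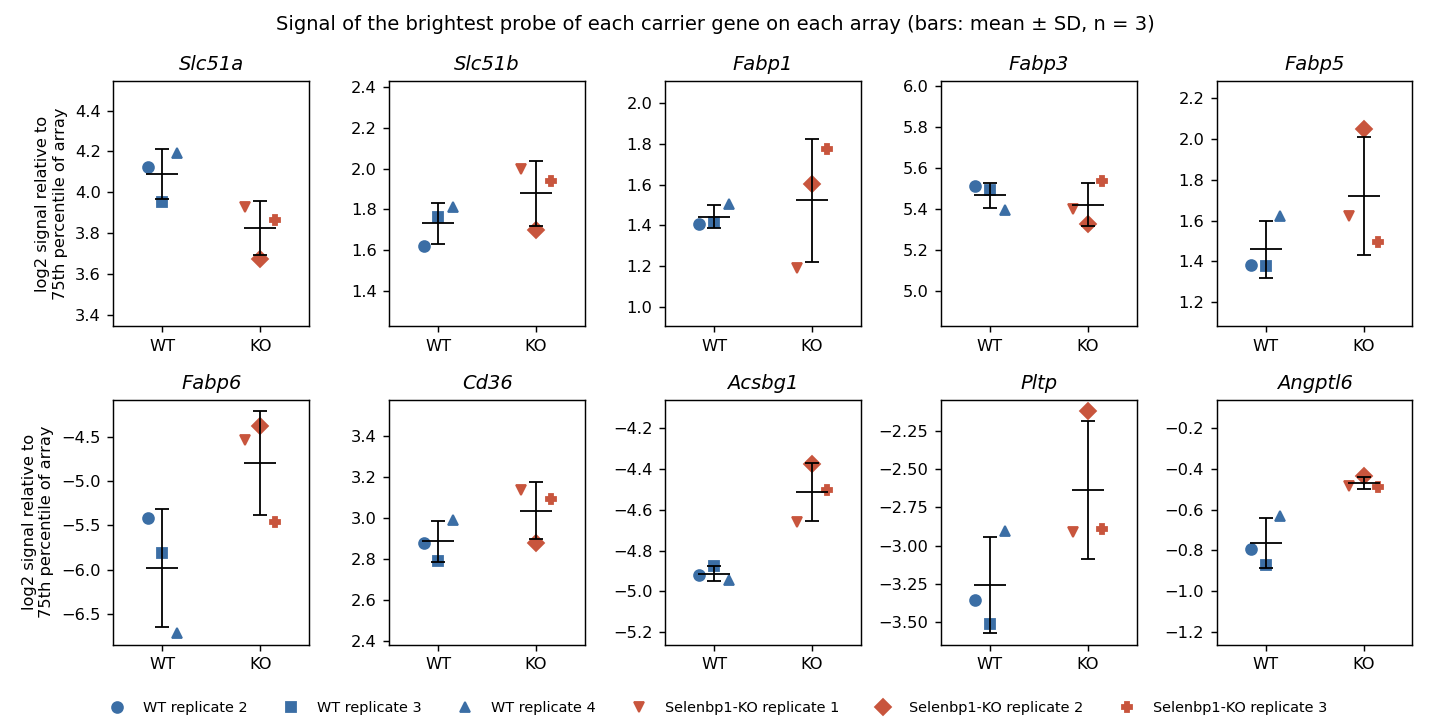
Each panel plots 1 carrier gene, with the log2 signal of its brightest probe relative to the 75th percentile of the array on the y axis, 1 symbol per array, and the mean ± SD (n = 3) of each genotype as a bar. Slc51a lies lower and Acsbg1 and Angptl6 lie higher on all 3 Selenbp1-KO arrays than on any WT array, and the other 7 genes overlap.

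In what follows values are given in the order WT replicates 2, 3, and 4, then Selenbp1-KO replicates 1, 2, and 3. Slc51a, the alpha subunit of the basolateral bile acid transporter, had 4.12, 3.95, and 4.19 in WT and 3.93, 3.68, and 3.87 in Selenbp1-KO kidneys (ENSMUST00000042042, chr16:32475636-32475695). Every Selenbp1-KO array lay below every WT array, although Selenbp1-KO replicate 1 and WT replicate 3 were only narrowly apart. The difference was -0.27 (SE 0.12), or 1.20-fold lower. The second probe, whose sequence is printed above, starts 235 bases away and had 2.15, 2.16, and 2.05 in WT and 1.97, 1.88, and 1.90 in Selenbp1-KO kidneys. Here too the genotypes did not overlap, and the difference was -0.20 (SE 0.097).

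Slc51b, the beta subunit without which the transporter does not reach the membrane, had 1.62, 1.76, and 1.81 in WT and 2.00, 1.70, and 1.94 in Selenbp1-KO kidneys (NM_178933). Selenbp1-KO replicate 2 lay within the WT values and the others above them. The difference was 0.15 (SE 0.13), opposite in sign to that of Slc51a. Over the 6 arrays the centred profiles of both subunits were 0.23 apart (root mean square, log2), and 57.6% of the genes well above background on all arrays were nearer to Slc51a than Slc51b was.

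Fabp1, the liver-type fatty acid-binding protein, had 1.41, 1.42, and 1.51 in WT and 1.19, 1.60, and 1.78 in Selenbp1-KO kidneys (NM_017399, chr6:71154906-71154965). The WT arrays lay close together, and the Selenbp1-KO arrays spread to both sides of them, with an SD of 0.30 (n = 3) against 0.055 (n = 3) in WT. The mean difference of 0.08 (SE 0.17) was smaller than this spread.

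Fabp3, the heart-type binding protein, had 5.51, 5.49, and 5.40 in WT and 5.40, 5.33, and 5.54 in Selenbp1-KO kidneys (NM_010174). The genotypes overlapped and the difference was -0.04 (SE 0.11). Its second probe, which shares 51 of its bases with the first, differed by -0.04 as well.

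Fabp5, the epidermal-type binding protein, which macrophages and fat cells also make, had 1.38, 1.38, and 1.62 in WT and 1.62, 2.05, and 1.49 in Selenbp1-KO kidneys (NM_001272097, chr3:10016185-10016244). Selenbp1-KO replicate 2 stood above the rest. The difference was 0.26 (SE 0.18), and 0.10 without that array.

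Fabp6, the ileal bile acid-binding protein, gave the largest difference of the 10, from signals near background. It had -5.42, -5.81, and -6.72 in WT and -4.53, -4.38, and -5.47 in Selenbp1-KO kidneys (NM_008375). The raw signals were 16.6, 13.4, and 4.93 in WT and 24.5, 22.9, and 13.2 in Selenbp1-KO kidneys, and only Selenbp1-KO replicates 1 and 2 were well above background. WT replicate 2 lay just above Selenbp1-KO replicate 3, so the genotypes overlapped. The fitted difference was 1.19 (SE 0.43). Set against the lowest signal that counted as well above background on the WT arrays, the Selenbp1-KO mean was 1.32-fold higher, which is no firm lower limit, since that mean includes replicate 3, where the probe was not well above background. Genes not well above background on any array had a median difference of 0.38, and 10.8% of those 15879 genes had an unadjusted p under 0.05.

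Cd36, which takes up long-chain fatty acids and oxidized lipoproteins and is made by endothelium, macrophages, and fat cells, had 2.88, 2.79, and 2.99 in WT and 3.14, 2.88, and 3.09 in Selenbp1-KO kidneys (NM_007643, chr5:17288600-17288659). Selenbp1-KO replicate 2 lay within the WT values. The difference was 0.15 (SE 0.12), where the median was 0.13 over all genes and 0.019 over genes well above background on all 6 arrays.

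Acsbg1, which activates long-chain and very long-chain fatty acids, was read by 2 probes, both near the limit of detection. The first had -4.92, -4.87, and -4.95 in WT and -4.66, -4.38, and -4.50 in Selenbp1-KO kidneys (ENSMUST00000132914, chr9:54494061-54494120). All Selenbp1-KO arrays lay above all WT arrays, with a difference of 0.40 (SE 0.11). This probe was well above background on WT replicates 2 and 3 and on Selenbp1-KO replicate 3 alone, so the level is poorly fixed in both genotypes. The probe of the RefSeq transcript NM_053178 (chr9:54453010-54453069) ran from -5.53 to -4.34 in WT and from -6.12 to -4.37 in Selenbp1-KO kidneys, overlapped, and differed by -0.13 (SE 0.52). The 2 probes thus differed in sign.

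Pltp, which moves phospholipids between lipoproteins in plasma, had -3.36, -3.51, and -2.91 in WT and -2.91, -2.12, and -2.89 in Selenbp1-KO kidneys (NM_011125, chr2:164665022-164665081). WT replicate 4 and Selenbp1-KO replicates 1 and 3 were nearly level, with Selenbp1-KO replicate 2 far above them. The difference was 0.62 (SE 0.27), and 0.36 without Selenbp1-KO replicate 2.

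Angptl6, a secreted angiopoietin-like protein, had -0.80, -0.87, and -0.63 in WT and -0.48, -0.43, and -0.49 in Selenbp1-KO kidneys (NM_145154). The Selenbp1-KO arrays lay close together, above every WT array, with an SD of 0.031 (n = 3). The difference was 0.29 (SE 0.11), or 1.23-fold higher.

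**Figure D2:**
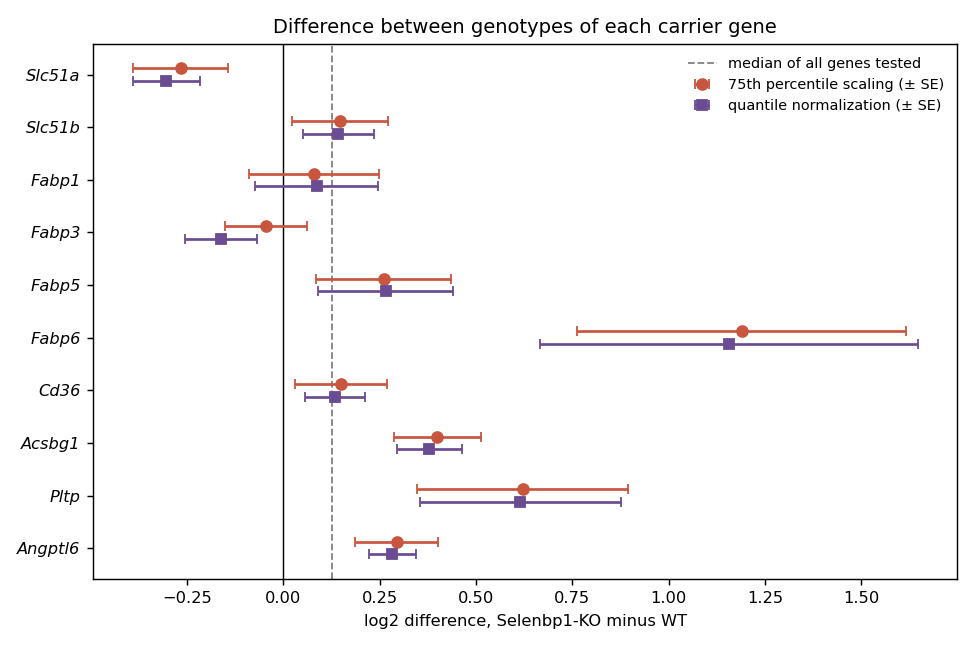
The log2 difference, Selenbp1-KO minus WT, is on the x axis for each carrier gene, as scaled to the 75th percentile (circles) and after quantile normalization (squares), each with its SE from limma. The dashed line is the median of all genes at 0.13, and each of the 10 genes has the same sign at both scalings, with the widest move in Fabp3, from -0.04 to -0.16.

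Most genes on the array shifted upward at this scaling, mainly the dim ones. The median was 0.38 for genes not well above background on any array and 0.019 for those well above it on all 6. Subtracting the median of all genes therefore lowers the 8 carriers of the latter kind by more than genes of their brightness shifted. It lowers Fabp6 and Acsbg1, which were near background, by less than the 0.38 of genes not well above background on any array. With these limits, the differences were also set against the median of all genes. On that footing Slc51a stood at -0.39 and Fabp3 at -0.17, while Fabp1 came to -0.045, Slc51b and Cd36 came to 0.02, and Fabp5 to 0.14. Angptl6 stood at 0.17, Acsbg1 at 0.27, Pltp at 0.50, and Fabp6 at 1.06. With quantile normalization Slc51a differed by -0.30, Angptl6 by 0.28, Pltp by 0.62, and Fabp6 by 1.16.

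All 6 arrays lay on 1 slide, and their file names end in a pair of digits. The first digit was 1 for WT replicates 2 and 3. It was 2 for WT replicate 4 and all 3 Selenbp1-KO replicates. What this digit stands for is not stated, and it is called the slide position here. With the slide position as a block, the 3 Selenbp1-KO arrays are compared with 1 WT array, WT replicate 4. These differences therefore rest on that WT array alone and are no separate control for position. Slc51a then differed by -0.37 and Fabp6 by 1.93. The raw Fabp6 signal of WT replicate 4 was 4.93, the lowest of the 6 arrays and not well above background. Acsbg1 differed by 0.43, Pltp by 0.27, Angptl6 by 0.16, and Fabp5 by 0.10. The rest were nearer to 0, with 0.07 for Slc51b, 0.05 for Cd36, 0.03 for Fabp3, and 0.02 for Fabp1. In that comparison, Pltp, Fabp5, Fabp1, Cd36, Slc51b, and Angptl6 had smaller differences than over all 6 arrays.

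Several of these genes are made by more than 1 kind of cell, and in whole kidney fewer cells of a type cannot be told apart from less RNA per cell. Of 8 macrophage markers, 6 passed the same unadjusted threshold as higher in Selenbp1-KO kidneys and none as lower, with a median difference of 0.54. Their summed level, relative to the 75th percentile of the array, was 10.8 to 12.4 in WT and 13.0 to 14.4 in Selenbp1-KO kidneys, and none of the 8 was at background on all arrays. With the slide position as a block, which leaves 1 WT array in the comparison, fewer of the 8 passed. Of 8 fat tissue markers, none passed in limma, although all 8 differences were above 0, with a median of 0.76. All 8 were well above background on all arrays, and their summed level was 13.3 to 50.1 in WT and 22.8 to 127 in Selenbp1-KO kidneys. The mean of the centred fat markers was highest in Selenbp1-KO replicate 2 (1.36) and replicate 1 (0.65), and lowest in WT replicate 4 (-1.09) and Selenbp1-KO replicate 3 (-0.92). Pltp and Fabp5 were highest in Selenbp1-KO replicate 2 as well, whereas Cd36 and Slc51b were lowest there among the Selenbp1-KO arrays. Within Selenbp1-KO Fabp5 was in the order of the fat markers (1.62, 2.05, and 1.49 in replicates 1, 2, and 3). In WT replicate 4, where the fat markers were lowest, Pltp and Fabp5 had their highest WT values (-2.91 and 1.62). Pltp was nearly level in Selenbp1-KO replicates 1 (-2.91) and 3 (-2.89). The part of macrophages or fat in the differences of Pltp, Fabp5, and Cd36 was not tested. None of the 8 hepatocyte, 8 enterocyte, or 8 endothelial markers passed. The summed level of the enterocyte markers was 33.6 to 34.2 in WT and 29.7 to 32.3 in Selenbp1-KO kidneys. Of these markers, 4 differences were above 0 and 4 below, and 4 markers were well above background on all arrays. The mean of the centred hepatocyte markers was uneven, at -1.07, 0.38, and 0.65 on Selenbp1-KO replicates 1, 2, and 3. Their summed level was 95.7 to 105 in WT and 92.5 to 106 in Selenbp1-KO kidneys. Fabp1 had the order of the hepatocyte mean within Selenbp1-KO and the reverse order in WT, and a link was not tested. Of 8 striated muscle markers, 2 passed as higher (Tnnt2 and Tnni3), with a median difference of 0.40, but no WT array had either of them well above background, and for 4 of the 8 no array did. Of 8 adrenal cortex markers none passed, although all 8 differences were above 0, with a median of 0.28, and 4 were not well above background on any array.

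**Figure D3:**
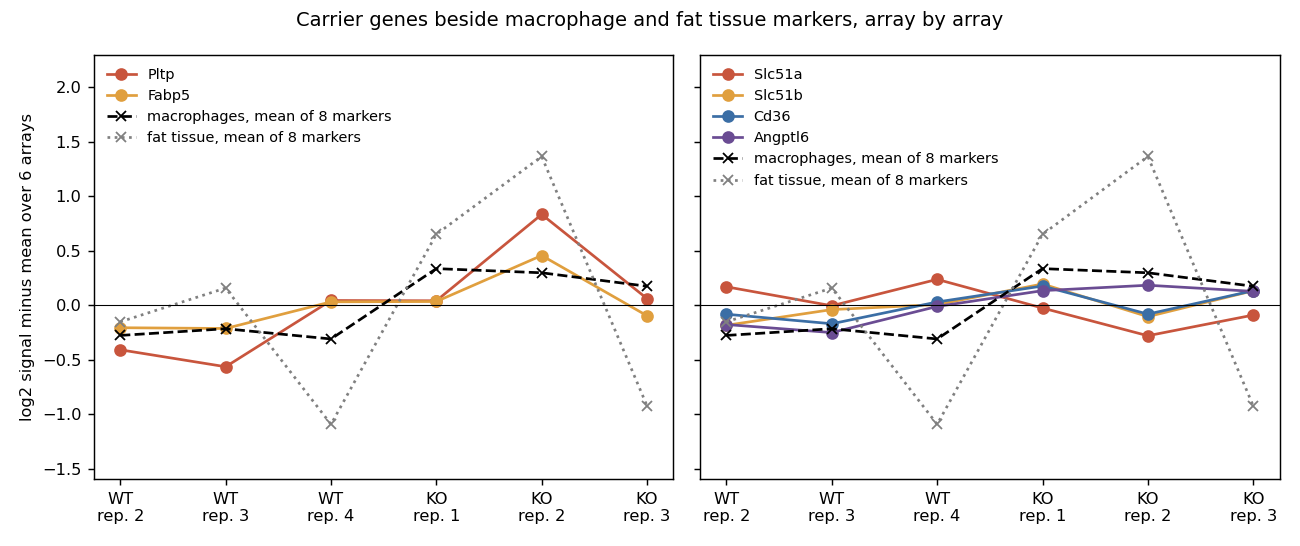
The y axis shows the log2 signal of each array minus the mean over the 6 arrays, which are on the x axis, for 6 carrier genes (solid lines) and the mean of 8 macrophage and 8 fat tissue markers (dashed and dotted). Fat markers peak at 1.36 and Pltp also peaks in Selenbp1-KO replicate 2. In WT replicate 4, where fat markers are lowest, Pltp is the highest of the WT arrays. Macrophage markers are above 0 on all 3 Selenbp1-KO arrays and below 0 on all WT arrays.

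For the 8 carriers well above background on all arrays, the genes with the nearest profile were sought among the 18361 genes of that kind, by the root mean square difference of centred log2 signals over the 6 arrays. For Slc51a the nearest named genes were Ppat, an enzyme of purine synthesis, at 0.029 and Zfp36l2, an RNA-binding protein, at 0.034, where the median gene lay 0.21 away. For Slc51b they were Gm10731 at 0.020 and Lrriq3 at 0.031. Fabp1 had Pdk4, a kinase that inhibits pyruvate dehydrogenase, at 0.027, and next Mybl1 at 0.039 and Gm30500 at 0.049. The difference of Pdk4 between genotypes was 0.08, as for Fabp1.

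Fabp3 was nearest to Brix1 (0.012), Slf1 (0.013), and Tas1r3 (0.014), and Cd36 to Gpr137b (0.022), Crx (0.024), and Tmem120a (0.025). Angptl6 was nearest to Gmfg (0.013), Tsacc (0.019), and H2ac22 (0.022). Fabp5 was nearest to Oprl1 (0.040) and Panx1 (0.046). Such distances grow with the spread of a gene. Pltp varied more within genotypes than 95.4% of genes well above background, and the median gene lay 0.45 from it. Its nearest named genes were Cldn4, a tight junction protein, at 0.12 and Shisa2 at 0.13. These nearest profiles are descriptions over 6 arrays, which include the genotype difference. Among the carriers themselves, Pltp and Fabp5 were 0.24 apart, with 0.53% of genes nearer to Pltp but 38.3% nearer to Fabp5, and Slc51b and Cd36 were 0.069 apart, with 1.41% of genes nearer to Slc51b and 2.03% nearer to Cd36.

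Other genes of the same pathways were taken from 5 lists of 91 genes, 90 of which were tested. Without adjustment, 6 of these passed as higher and 1 as lower in Selenbp1-KO kidneys, that is 7.78%, near the 8.00% of all genes, and their median difference of 0.11 was near the 0.13 of all genes. None had an adjusted p below 0.279 (limma, over all probes). The 11 bile acid transport genes, which include apical uptake carriers and efflux pumps, had 0 that passed at the unadjusted threshold, with 6 differences above 0 and 5 below. Among the 15 genes of bile acid receptors and synthesis, 1 passed, Baat, which was not above background on any array. Of 18 genes of fatty acid uptake and activation, 0 passed.

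Among 15 other intracellular lipid-binding genes, 4 passed, 3 higher and 1 lower. Rbp7, a retinol-binding protein, had -3.34, -1.67, and -2.78 in WT and -1.27, -0.13, and -1.94 in Selenbp1-KO kidneys. The groups overlapped, with a difference of 1.49 (SE 0.59). Within Selenbp1-KO Rbp7 was in the order of the fat markers, and in WT both were highest in replicate 3. WT replicates 2 and 4 stood in the reverse order, and the part of fat in Rbp7 was not tested. Acbd5, a peroxisomal acyl-CoA-binding protein, had -1.51, -1.43, and -1.37 in WT and -1.70, -1.87, and -1.75 in Selenbp1-KO kidneys and fell by 0.33 (SE 0.10). Fabp12, among those higher, was not above background on any array.

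Of 31 genes of lipoproteins, lipases, and angiopoietin-like proteins, 2 passed, both higher. Gpihbp1, which anchors lipoprotein lipase on capillary endothelium, had 1.02, 1.20, and 1.18 in WT and 1.56, 1.68, and 1.38 in Selenbp1-KO kidneys. The groups did not overlap and differed by 0.40 (SE 0.12). Bpi, a relative of Pltp, was not above background on any array. For Rbp7, Acbd5, and Gpihbp1 the sign was the same in each of the 17 alternatives tried, while Rbp7 lost its unadjusted call in 10 of them, Gpihbp1 in 5, and Acbd5 in 3.

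A further 4 genes were picked after their values were seen, as the nearest relatives or partners of the carriers. The apical bile acid carrier Slc10a2 had 0.94, 0.82, and 1.24 in WT and 1.39, 1.14, and 1.33 in Selenbp1-KO kidneys, overlapping, with 0.28 (SE 0.15) between the means. The bile acid receptor Nr1h4 differed by -0.09 (SE 0.12). The fat cell binding protein Fabp4 had 4.32, 4.59, and 3.80 in WT and 5.23, 5.68, and 4.05 in Selenbp1-KO kidneys. It was in the order of the fat markers over all 6 arrays. The difference was 0.75 (SE 0.45), and the part of fat in it was not tested. Angptl4, an inhibitor of lipoprotein lipase raised by fasting, differed by -0.01 (SE 0.12).

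**Figure D4:**
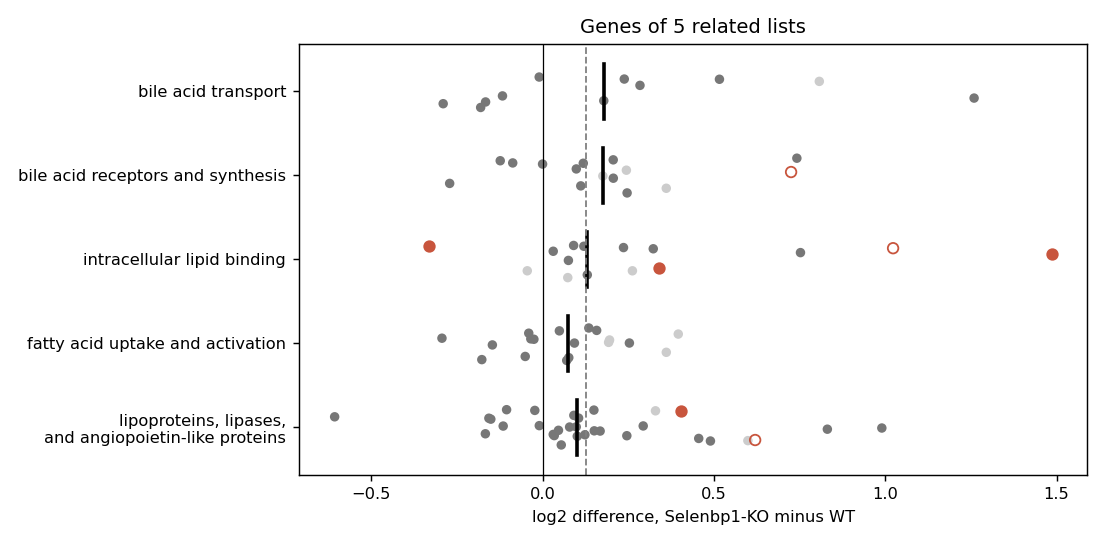
Each point is 1 gene of the 5 related lists, with its log2 difference, Selenbp1-KO minus WT, on the x axis and its list on the y axis. Filled red points passed an unadjusted p under 0.05, open red points passed but were not above background on any array, pale points were not above background, black bars are list medians, and the dashed line is the median of all genes at 0.13.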

How the data were processed

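Kidney RNA of 3 WT and 3 Selenbp1-KO mice was labelled with Cy3 and hybridized to 6 arrays. The authors deposited the Feature Extraction output (version 9.5.1.1 per the labels, 10.7.1.1 in the file headers): for each spot a linear intensity, from which the software had subtracted background and a spatial trend, a detection p-value, and flags. They also deposited a table of 1 intensity per probe with the same quartiles in all 6 columns, that is, quantile normalized, which served as an alternative. Labels of slide position come from the file names.

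Log2 intensities were set relative to the 75th percentile of 59305 non-control spots, flagged spots were dropped, and replicate spots were averaged. Of 56605 probes, the 56097 detected (p under 0.05) on 1 or more arrays were tested with limma (version 3.58.1) in R (version 4.3.3). As in the methods, p under 0.05 without adjustment was the threshold, and Benjamini-Hochberg values are given too. Genes were named through RefSeq accessions (32994 probes) or else by the name in the file, and each was represented by its brightest probe. The model was tested on simulated data. The rule for named genes took all 10 carriers, Selenbp1, up to 4 genes of each list with the largest difference that passed and were well above background, and the 3 nearest profiles of each carrier; 1 list gene that met this rule is not reported here. Outside the rule, Baat, Fabp12, Bpi, Tnnt2, Tnni3, Slc10a2, Nr1h4, Fabp4, and Angptl4 were named after their values were seen. The members and the lists were chosen with earlier results of these data known. Whether the mice came from separate litters is not stated, so p-values measure the spread between these samples. Alternatives were other background corrections and scalings, the authors' table, filters, flagged spots kept, trend and robust options, and the methods' t-test. Further ones were slide position or replicate number as a block, the mean of all probes, and leaving out each array. No protein sequence was used here.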

Additional observations from a re-analysis of the deposited data

How the results depend on the processing

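All 10 carriers kept the sign of their difference in every alternative run, except Fabp1 and Fabp3. With single arrays left out, Fabp1 ran from -0.045 (without Selenbp1-KO replicate 3) to 0.247 (without Selenbp1-KO replicate 1) and Fabp3 from -0.103 (without Selenbp1-KO replicate 3) to 0.0019 (without Selenbp1-KO replicate 2). Over all alternatives Fabp1 reached 0.279 (replicate block), and Fabp3 ran from -0.16 (quantile normalization) to 0.026 (slide position as a block). Slc51b and Cd36 were 0.087 and 0.10 without Selenbp1-KO replicate 1, and 0.24 and 0.23 when Selenbp1-KO replicate 2 was left out. Slc51b was 0.091 without WT replicate 2. The number higher in Selenbp1-KO kidneys was 7 to 9 when single arrays were left out. Fabp6 and Acsbg1 had no value under the filter on probes well above background. Normexp background correction lowered Fabp6 to 0.41 and Acsbg1 to 0.21, and the mean of both Acsbg1 probes was 0.13. Fabp6 ran from 0.82 without WT replicate 4 to 1.53 without Selenbp1-KO replicate 3.

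The counts over all probes moved more. Of 4479 probes differing, 81.1% were higher. The count was 14616 with median scaling (93.6% higher), 2841 when probes had to be well above background (64.7%), and 7536 with limma's trend and robust options. Quantile normalization gave 4697 (53.8% higher), the authors' own values 4687 (55.1%), and normexp 6261 (95.4%). With the slide position as a block, which leaves 1 WT array in the comparison, fewer probes passed and most of them were lower. Leaving out single arrays gave 2024 (without WT replicate 2) to 17585 (without WT replicate 4), with 2627 when WT replicate 3 and 2808 when Selenbp1-KO replicate 2 was left out. Without WT replicate 4, 12522 probes passed after adjustment, against 2 in the main fit. In that run all WT arrays had slide position 1 and all Selenbp1-KO arrays position 2. Genotype and position cannot be told apart there. The 7 pathway list genes became 11 with normexp, 16 with trend and robust options, and 3 (without WT replicate 2) to 15 (without WT replicate 4). They were 11 without Selenbp1-KO replicate 3. The cause was not tested.

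Genotypes share only replicate numbers 2 and 3, and arrays of these numbers had correlated deviations of 0.17 and 0.20. In both pairs the WT array had slide position 1 and the Selenbp1-KO array position 2. Genotype and position thus cannot be told apart with the replicate block, where 18430 probes and 14 pathway list genes differed. Rbp7, Acbd5, and Gpihbp1 kept their sign and lost their unadjusted call. Signal over background limits what Fabp6 and Acsbg1 can show.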
